A study of Mus musculus with 5 samples.

Results

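The 9 genes described here (Bst2, Gbp2, Ifitm1, Ifitm2, Ifitm3, Irf1, B2m, Psmb8 and Tap1) are induced by interferons in many cell types, and every probe annotated to one of them was taken, which gave 19 probes. They are 9 of 16593 genes with a named probe on the arrays. The set was chosen by function and on its measured differences from untreated, those of Bst2 under PD and of Gbp2 under LIF above all, so these differences are given as a description. Expression was measured on Illumina bead arrays in the mouse epiblast stem cell line E3, whose pluripotent cells resemble the epiblast after implantation. Each of 5 cultures gave 1 array. One culture received PD, the MEK kinase inhibitor PD0325901 at 1 µM. Another received CH, the GSK3 kinase inhibitor CHIR99021 at 3 µM, and another LIF, 1000 U/ml of leukemia inhibitory factor. The PCL culture received all of these at the same doses, and the untreated culture received none. All 5 cultures shared the same history: they had grown on inactivated CF1 mouse embryonic fibroblasts with 5 ng/ml FGF2, and the FGF2 was left out for the 12 h of treatment. The RNA therefore came from 1 line and may include RNA of the fibroblasts.

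Interferons bind receptors on the cell surface whose JAK kinases phosphorylate STAT proteins. Target promoters are reached through STAT sites and through interferon-stimulated response elements. LIF signals through other receptors of the same kind, chiefly to STAT3. Pluripotent cells are known to respond weakly to interferon while expressing some of its target genes, among them the Ifitm genes, without it.

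Interferon signals act through short sequences in promoters, so 3 of the promoters are shown. Sequences are those of RefSeq for the build GRCm38.p6, from 250 bases before to 50 bases after the start, 5′ to 3′ along the gene. All 9 genes matched, with 10 promoters. The searched motifs were the core of the interferon-stimulated response element, GAAANNGAA, and the STAT site TTCNNNGAA, on both strands, and capitals mark every match. Bst2 (chr8:71537423-71537722, minus strand) and Gbp2 (chr3:142620413-142620712, plus strand) are shown because the values turn on them. Ifitm3 (chr7:141010695-141010994, minus strand) is shown because, like Bst2, it holds both motifs.
Bst2: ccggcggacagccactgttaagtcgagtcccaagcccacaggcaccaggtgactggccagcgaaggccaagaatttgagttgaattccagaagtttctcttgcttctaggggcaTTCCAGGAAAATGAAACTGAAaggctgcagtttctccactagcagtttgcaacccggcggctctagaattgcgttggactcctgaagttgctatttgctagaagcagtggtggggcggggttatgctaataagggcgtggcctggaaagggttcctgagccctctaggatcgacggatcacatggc
Gbp2: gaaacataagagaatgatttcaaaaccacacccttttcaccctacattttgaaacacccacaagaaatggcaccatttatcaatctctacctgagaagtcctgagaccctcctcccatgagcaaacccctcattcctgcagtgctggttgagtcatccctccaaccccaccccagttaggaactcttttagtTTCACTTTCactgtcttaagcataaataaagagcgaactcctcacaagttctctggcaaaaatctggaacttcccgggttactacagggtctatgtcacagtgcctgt
Ifitm3: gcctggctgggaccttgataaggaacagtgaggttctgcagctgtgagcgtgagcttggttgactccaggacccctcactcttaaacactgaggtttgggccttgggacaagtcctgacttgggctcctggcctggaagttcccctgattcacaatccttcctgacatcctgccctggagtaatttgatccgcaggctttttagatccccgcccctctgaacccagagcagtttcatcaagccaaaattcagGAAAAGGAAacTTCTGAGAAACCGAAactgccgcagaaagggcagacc
In Bst2, counted from the start of the gene, a STAT site begins at position -136 and 2 response element cores begin at -130 and -124, so that the 3 matches overlap. Gbp2 holds 1 response element core on its minus strand, at position -58, and no STAT site in this window. In Ifitm3 the cores lie at positions 3 and 20 after the start, with a STAT site at position 14 that overlaps the second core.

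Over all 9 genes the response element core was present in 5 (Bst2, Gbp2, Ifitm2, Ifitm3 and B2m) and the STAT site in 4 (Bst2, Ifitm3, Irf1 and Psmb8). Ifitm1 and Tap1 held neither in this window. Of 32851 RefSeq promoters of the same length, 8.56% held the core, 8.30% the STAT site and 1.07% both. These matches describe letters and are not shown to be bound. Genes that hold the core differed in their levels: the PD array was lowest for Bst2, and the LIF array was highest for Gbp2 and lowest for Ifitm2.

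The arrays were alike in how many probes they detected. Between 10389 and 10898 of 25697 probes were detected (detection p under 0.01, the share of negative control probes as bright as the probe). The median raw signal lay between 90.0 and 96.1, against 78.6 to 83.7 for probes with a detection p above 0.4. Each ± below is the standard error over a probe's beads, in log2 units for levels and differences and in signal units for raw signals. It covers measurement within an array and not the spread between cultures, for which there was no replicate, so no difference was tested. Known targets of the agents were read as a check of the labels. Egr1, an ERK target, was at least 6.57-fold lower under PD and at least 6.14-fold lower under PCL. Axin2, a Wnt target, differed from untreated by 1.46 on the log2 scale under CH and 1.48 under PCL, and the STAT3 target Socs3 by 1.79 ± 0.10 under LIF and 1.30 ± 0.10 under PCL. Of 12 epiblast stem cell markers, 10 were detected on every array. Cer1 and Cdh2 were not detected.

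Interferon-responsive genes are also expressed by fibroblasts, and in these cultures a change in a cell type's share cannot be told apart from one in its RNA per cell. Of 22 feeder fibroblast markers on the arrays, 16, 16, 16 and 14 were detected under PD, CH, LIF and PCL, against 17 in untreated cells. Their summed linear level was 1.53 times the untreated one under PD, 1.09 under CH, 1.11 under LIF and 1.29 under PCL. Bright markers weigh most in these sums, and the markers did not all move alike. By gene 13 lay above and 4 below untreated under PD, 9 and 9 under CH, 7 and 10 under LIF, and 10 and 7 under PCL. The median log2 differences were 0.47, 0.07, -0.03 and 0.12 under PD, CH, LIF and PCL. The PD and PCL arrays, with the highest sums, were also the lowest for Bst2. Col1a2, Col3a1, Postn and Pdgfrb were not detected on any array. Of 7 immune cell markers only Lyz2 was detected. The part of the fibroblasts in the members' values was not tested.

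The members divided by brightness. Bst2, Gbp2, Ifitm2, Ifitm3, Irf1 and B2m were detected on all 5 arrays by their brightest probe. Tap1 was detected on all arrays but PD, Ifitm1 on the CH and PCL arrays only, and Psmb8 on the LIF array only. Ifitm1 and Psmb8, and Tap1 against the PD array, thus enter a comparison only through the array where they are high. This fixes the direction of those differences.

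**Figure D1:**
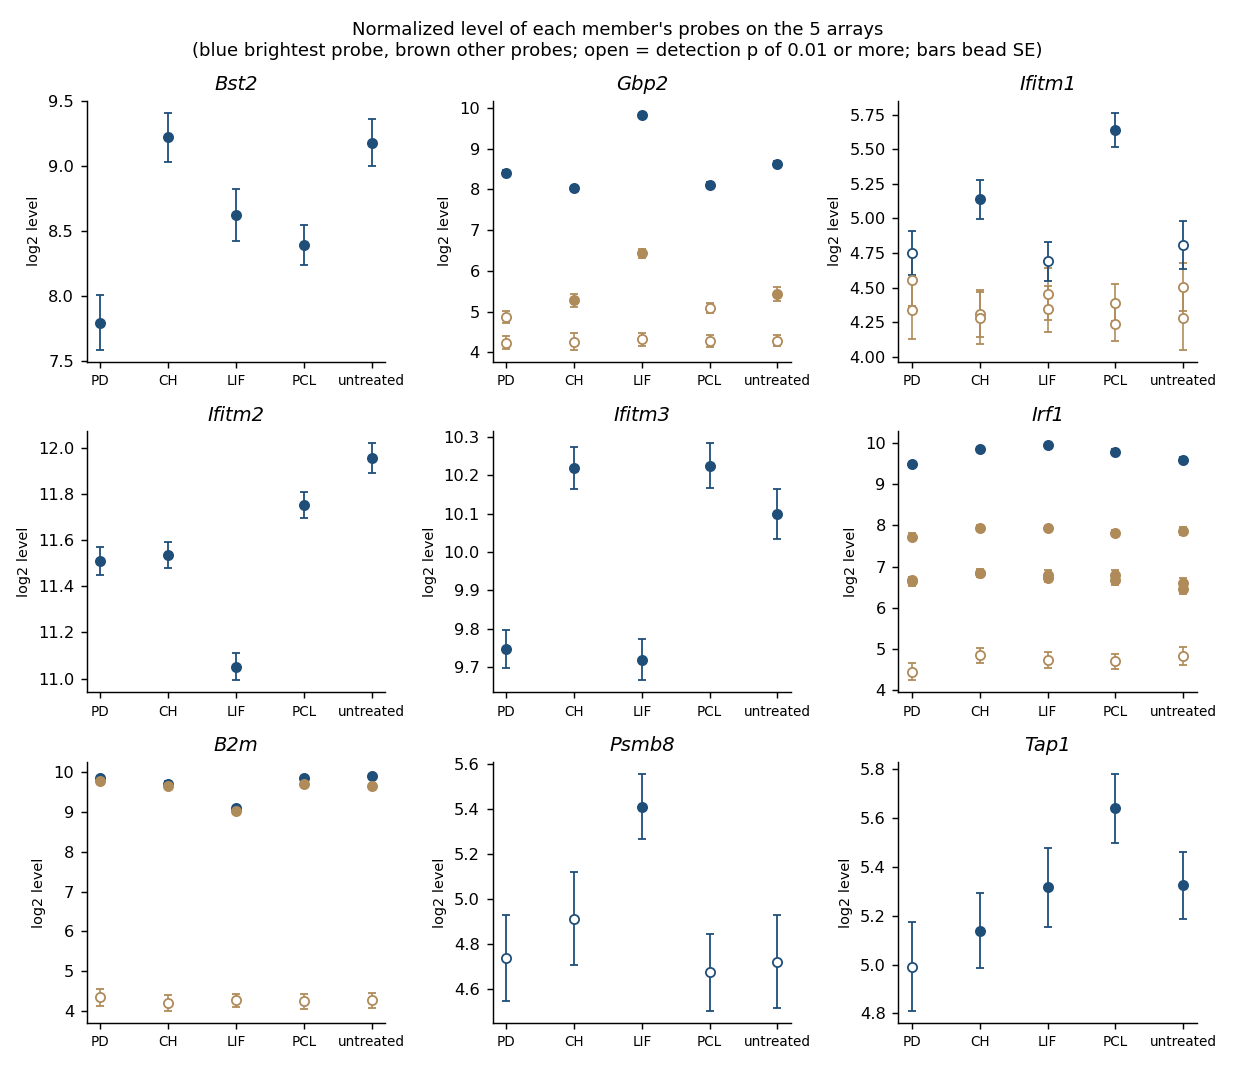
Normalized log2 level (vertical axes, a separate scale for each gene) of every probe of the 9 genes on the PD, CH, LIF, PCL and untreated arrays, with the bead standard error as bars. Open points mark a detection p of 0.01 or more. Bst2 is lowest on the PD array at 7.80 and Gbp2 highest on the LIF array at 9.83, where its second probe is highest too.

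Bst2 encodes tetherin, a membrane protein that holds budding enveloped viruses on the cell surface. Its 1 probe gave a raw signal of 297 ± 32.7 under PD, 702 ± 83.5 under CH, 499 ± 59.5 under LIF and 370 ± 31.7 under PCL, against 621 ± 70.4 in untreated cells. The PD and PCL arrays, which share the MEK inhibitor, were the lowest, and CH and untreated were the highest and lay within 2 bead standard errors of each other. On the normalized log2 scale the levels were 7.80, 9.22, 8.62 and 8.39 under PD, CH, LIF and PCL, against 9.18 in untreated cells. The difference from untreated was -1.38 ± 0.28 under PD, a 2.61-fold lower level, 0.04 ± 0.26 under CH, -0.56 ± 0.27 under LIF and -0.79 ± 0.24 under PCL. Bst2 under PCL was 0.60 ± 0.26 above Bst2 under PD, so the level under PCL lay between those under PD and untreated. LIF and PCL lay within 2 bead standard errors of each other. Against the mean of the arrays without the agent, Bst2 stood at 0.69 under CH, and against the mean of the 4 other arrays at -0.31 under PCL.

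The precision of the Bst2 values was low. The bead standard error was 8.57% to 11.9% of the signal on the 5 arrays, where the median probe had 4.13% to 4.39%, and it was larger than that of 99.9% or more of the detected probes on every array. No second probe was present to set beside it. In the PD comparison 8 of 7761 genes had a lower value than Bst2, which was chosen for that difference.

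Gbp2 encodes a guanylate-binding protein, a large GTPase that acts at the vacuoles of intracellular pathogens. Its brightest probe gave a raw signal of 416 ± 14.9 under PD, 345 ± 12.1 under CH, 1023 ± 36.8 under LIF and 315 ± 11.8 under PCL, against 441 ± 16.8 in untreated cells. The LIF array alone was high, and the PCL array, where the same dose of LIF was present, was at the low end. The normalized levels were 8.41, 8.03, 9.83 and 8.11 under PD, CH, LIF and PCL, against 8.63 in untreated cells. Differences from untreated were -0.22 ± 0.09 under PD, -0.60 ± 0.09 under CH, 1.20 ± 0.09 under LIF (2.29-fold higher) and -0.52 ± 0.09 under PCL. CH and PCL lay within 2 bead standard errors of each other, and all other neighbours in the order did not.

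The second probe of Gbp2 gave raw signals of 100 under PD, 111 under CH, 162 under LIF and 99.3 under PCL, against 107 in untreated cells. It too was highest under LIF, at a difference of 0.99 ± 0.21, and it was not well above background under PD and PCL. The third probe was detected on no array. Between PCL and LIF, Gbp2 differed by -1.72 ± 0.09, which is 3.29-fold lower under PCL, and the second probe was at least 2.40-fold lower. Of 7712 genes in that comparison, 5 had a lower value, and under LIF against untreated 3 of 7796 had a higher one. By their brightest probes, the LIF targets Socs3 and Stat3 had 0.714 and 0.766 times their normalized level under LIF on the PCL array. They too were lower under PCL, and by less, and stood 1.30 and 0.90 above untreated there. Other detected probes of Stat3 stood at 0.92 and 1.08 under LIF, and in the same order at 0.36 and 0.96 under PCL.

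Against these values the rest of the family stood closer to untreated. Of the members, 1 was at least 2-fold lower under PD (Bst2), where 0.451% of all genes compared were, and 1 was at least 2-fold higher under LIF (Gbp2), where 0.154% were. These counts follow from how the genes were chosen. Under CH and under PCL 0 members passed 2-fold in either direction, where 0.572% and 0.706% of all genes were higher and 0.39% and 0.68% were lower. Under PD 0 were higher, where 0.49% of all genes were, and under LIF 0 were lower, where 2.81% were. Between PCL and LIF 1 member was lower (Gbp2), where 0.882% of genes were, and 0 were higher, where 3.02% were. Between PCL and PD 0 members were higher or lower, where 0.665% and 0.613% of genes were, and between PCL and CH 0 were, where 0.33% and 0.515% were.

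Under PD all 7 members that could be compared lay below 0. This direction was fixed beforehand for Bst2 by its choice and for Tap1 by detection on the untreated array only. Without Bst2 the other 6 lay between -0.45 and -0.05. The next lowest was Ifitm2, which moved to -0.0043 against the mean of the arrays without PD. Irf1 and B2m turned above 0, to 0.00 and 0.03, when all detected probes of a gene were averaged. The median over the 7, the value of Tap1, was -0.33, beside 0.00 over all genes, of which 50.2% lay above 0. Genes with a genomic span like a member's had medians between -0.16 and -0.02 under PD. Under LIF 3 members lay above and 5 below 0, with a median of -0.19 beside 0.05 over all genes, of which 55.2% lay above 0. Those above include Gbp2, chosen for its value, and Psmb8, which entered through the LIF array. With arrays scaled to a common median in place of quantiles, the median over all genes under LIF was 0.19, that over the members -0.10, and Tap1 turned above 0. Without Gbp2 the members detected on both arrays spread between -0.90 and 0.37. The medians were -0.07 over 8 members under CH and 0.04 over 8 under PCL, with 4 above and 4 below 0 in both. Of all genes, 48.5% lay above 0 under CH and 49.3% under PCL. The signs of the members' medians turned with arrays scaled to a common median, at 0.02 and -0.03. Gbp2 was the farthest from 0 under CH and under LIF, in opposite directions.

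**Figure D2:**
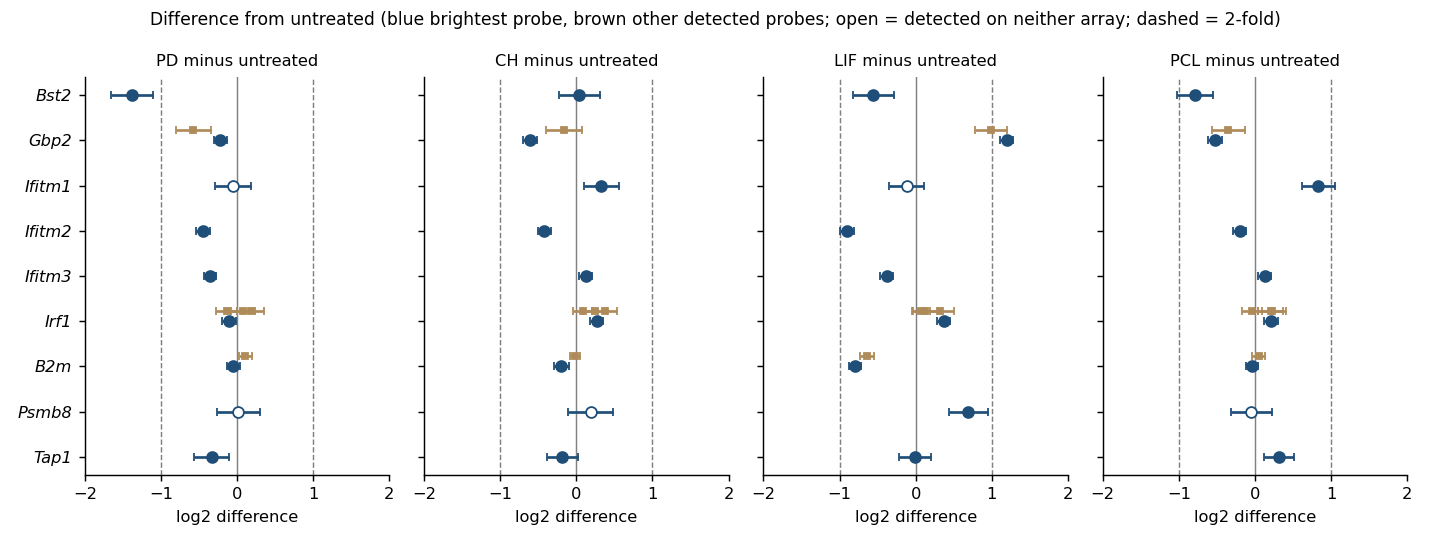
Log2 difference from untreated (horizontal axes) of each member on the 4 treated arrays, with propagated bead standard errors as bars, brown squares for other detected probes and dashed lines at 2-fold. Bst2 under PD at -1.38 and Gbp2 under LIF at 1.20 are the only filled points of brightest probes beyond the dashed lines.

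**Figure D3:**
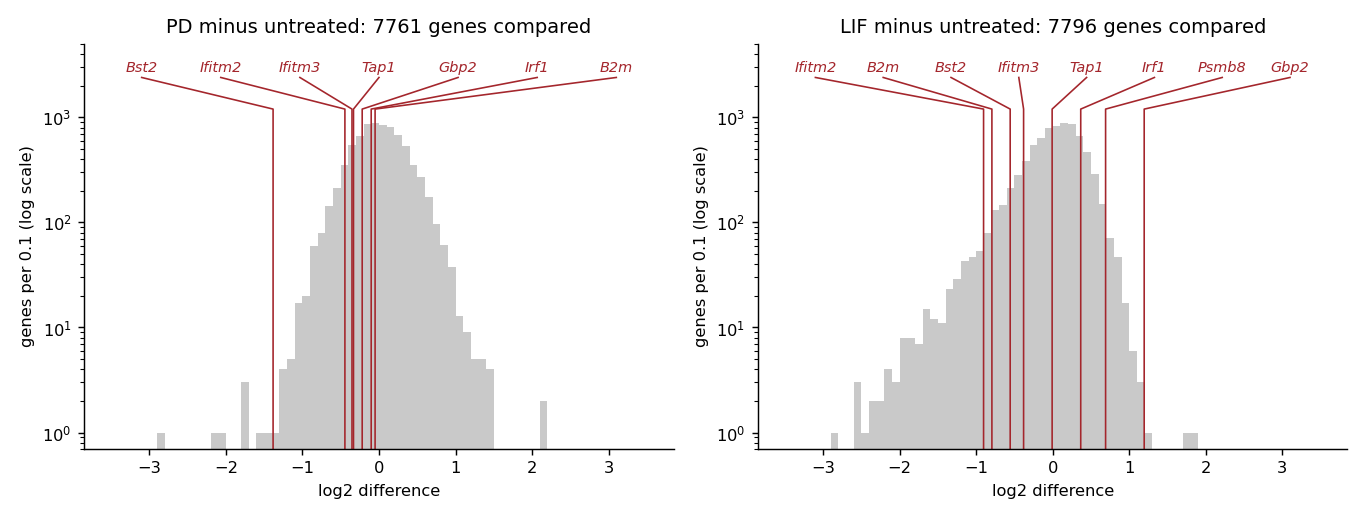
Number of genes (vertical axis, log scale) by log2 difference from untreated (horizontal axis, steps of 0.1) under PD and under LIF, with the members compared marked by red lines. Under PD 6 of 7 members fall in the bulk of genes and Bst2 in the low tail, and under LIF the members spread over both sides with Gbp2 in the high tail.

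The Ifitm genes encode small membrane proteins that block the entry of enveloped viruses, and Ifitm1, Ifitm2 and Ifitm3 neighbour each other on chromosome 7. Ifitm2 had a raw signal of 2970 under PD, 3262 under CH, 2259 under LIF and 3234 under PCL, against 4069 in untreated cells, so all treated arrays were below untreated. Its normalized differences were -0.45 ± 0.09 under PD, -0.42 ± 0.09 under CH, -0.90 ± 0.09 under LIF and -0.20 ± 0.09 under PCL. The untreated array was highest and LIF lowest, 1.87-fold apart, and CH and PD lay within 2 bead standard errors.

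Ifitm3 had a raw signal of 938 under PD, 1352 under CH, 960 under LIF and 1145 under PCL, against 1152 in untreated cells. The arrays formed a lower pair, PD and LIF, and an upper group of CH, PCL and untreated, with neighbours inside each group within 2 bead standard errors. The differences were -0.35 ± 0.08 under PD, 0.12 ± 0.08 under CH, -0.38 ± 0.09 under LIF and 0.13 ± 0.09 under PCL.

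Ifitm1 was near background, with 97.6 under PD, 107 under CH, 94.5 under LIF and 113 under PCL, against 93.0 in untreated cells. It was detected under CH and PCL, the arrays that share the GSK3 inhibitor, and not on the other 3. Under PCL it was at least 1.45-fold higher than untreated and under CH at least 1.03-fold, at 0.83 ± 0.22 and 0.33 ± 0.23 in measured log2 values. The other 2 probes of Ifitm1 were detected on no array. PCL was highest for Ifitm1 and untreated for Ifitm2, while CH, PCL and untreated were not resolved for Ifitm3. Near copies such as these may share sequence with each other's probes, which was not tested, since the probe sequences were not used here.

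Irf1 encodes a transcription factor that is induced by interferon gamma and activates other members of the family. Its brightest probe gave 794 under PD, 1066 under CH, 1113 under LIF and 864 under PCL, against 811 in untreated cells. By this probe LIF, CH and PCL were above untreated and PD was not, and the whole range over the 5 arrays was 1.38-fold, the narrowest of the members. The differences were -0.10 ± 0.09 under PD, 0.27 ± 0.09 under CH, 0.37 ± 0.08 under LIF and 0.21 ± 0.09 under PCL. Another 3 probes were detected on every array, and under LIF they stood at 0.07, 0.13 and 0.32. In the same order they stood at -0.14, 0.07 and 0.18 under PD, at 0.08, 0.24 and 0.37 under CH, and at -0.04, 0.20 and 0.22 under PCL. The probes thus differed in sign under PD and PCL. Gbp2, whose induction by interferon gamma is known to use Irf1, stood at 1.20 under LIF. It stood at -0.60 under CH and -0.52 under PCL, where the brightest probe of Irf1 was also above untreated. A link between the values of these genes was not tested.

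The remaining members serve antigen presentation. B2m is the light chain of MHC class I, Psmb8 a catalytic subunit of the immunoproteasome, and Tap1 part of the transporter that carries peptides into the endoplasmic reticulum. B2m had a raw signal of 1004 under PD, 961 under CH, 665 under LIF and 902 under PCL, against 995 in untreated cells. Only the LIF array stood apart, and the other 4 formed a series of neighbours within 2 bead standard errors. The difference under LIF was -0.79 ± 0.08, and its second detected probe gave -0.64 ± 0.09. Under PD, CH and PCL the values were -0.05 ± 0.08, -0.20 ± 0.10 and -0.04 ± 0.08, and 0.11, -0.02 and 0.05 by the second probe.

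Psmb8 was detected under LIF only, with a raw signal of 114, beside 97.3 under PD, 102 under CH, 91.6 under PCL and 91.1 in untreated cells. It was at least 1.24-fold higher under LIF than in untreated cells. Tap1 gave 103 under PD, 107 under CH, 111 under LIF and 113 under PCL, against 104 in untreated cells. On the normalized scale it was at least 1.20-fold lower under PD than in untreated cells before bead error is counted. The measured difference was -0.33 ± 0.23, less than 2 bead standard errors. All 5 levels of Psmb8, and all 5 of Tap1, were linked by neighbours within 2 bead standard errors. On chromosome 17 these genes lie in the order Psmb9, Tap1, Psmb8 and Tap2. Tap1 differed from untreated by -0.01 ± 0.21 under LIF.

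The members were short genes, with a median genomic span of 4850 bp, introns included, against 21088.5 bp over 8134 genes with a span. Genes of short span were lower on the LIF array as a whole, so each member was set beside the 10% of genes nearest to it in span. Under LIF the median of such genes was -0.32 for Ifitm3 (1155 bp), -0.21 for Bst2 (3218 bp) and -0.14 for Ifitm2 (4850 bp). Ifitm3 at -0.38 was then 0.06 below genes of like span, with 344 of 759 of them lower. Ifitm2 and B2m remained 0.76 and 0.68 below theirs, with 59 of 771 and 65 of 777 genes lower. Gbp2 spans 17346 bp, and 1 of 795 genes of like span was higher under LIF. Under PD, 1 of 767 genes of like span was lower than Bst2. Gbp2 and Bst2 were chosen for these values, so their places are descriptions. Short genes were lower under PD and CH too. The medians of like-span genes were -0.16 and -0.13 for Ifitm3, and -0.14 and -0.11 for Bst2. Under PD, B2m at -0.05 had 457 of 776 genes of like span lower, and Irf1 at -0.10 had 386 of 776. Ifitm2 had 101 of 773 lower, Ifitm3 203 of 759 and Gbp2 205 of 788. Tap1 is left out there, as detection fixed its direction. Psmb8, detected on the LIF array only, was not placed. The part of span in the members' differences was not tested further.

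**Figure D4:**
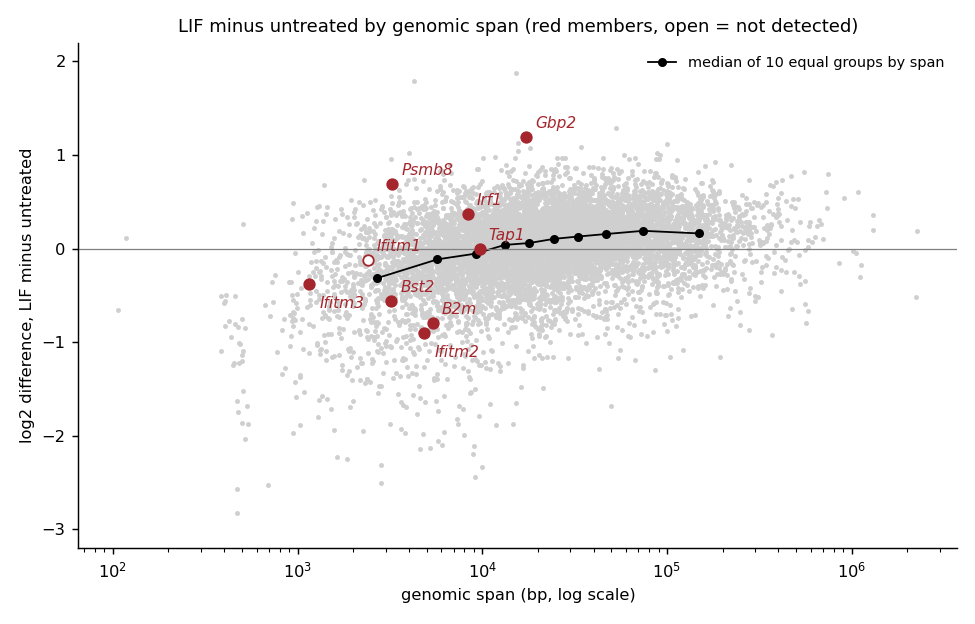
Log2 difference of LIF minus untreated (vertical axis) by genomic span in base pairs (horizontal axis, log scale), with members in red, other genes in grey and the medians of equal groups of genes by span as a black line. Ifitm3 lies near the height of the line's left end, Ifitm2 and B2m below it, and Gbp2 above it. The point of Psmb8 is a measured value against an untreated level not well above background.

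The PCL culture was also set beside the sum of the PD, CH and LIF differences, a description in which the untreated array enters several times. For Gbp2 the sum was 0.37 and PCL stood at -0.52, a departure of -0.89 ± 0.18, and the second probe departed by -0.60 ± 0.45. For Bst2 the sum was -1.90 and PCL stood at -0.79, a departure of 1.11 ± 0.53. The largest departure was that of Ifitm2, whose sum was -1.77 and whose value under PCL was -0.20, a departure of 1.57 ± 0.17. B2m departed by 1.00 ± 0.17 from a sum of -1.04, and by 0.60 ± 0.17 by its second probe, and Ifitm3 by 0.74 ± 0.17 from a sum of -0.61. A departure is PCL minus the sum, so the 2 quantities are tied by construction, and no pattern is read from their signs. The sums of Ifitm1 and Psmb8 rest on arrays where these genes were not well above background.

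**Figure D5:**
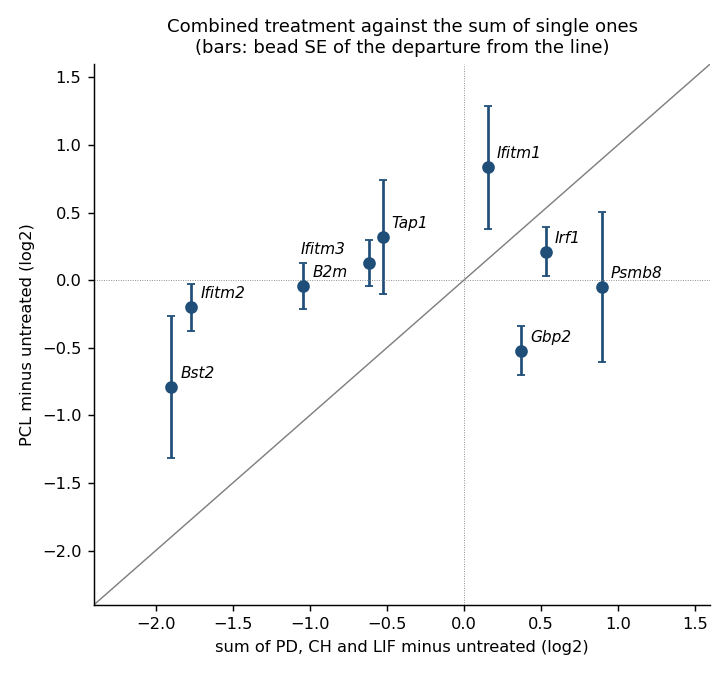
Log2 difference of PCL minus untreated (vertical axis) against the sum of the PD, CH and LIF differences (horizontal axis) for the 9 members, with the bead standard error of the departure as bars and a line where both are equal. Bst2, Ifitm2, B2m, Ifitm3 and Tap1 lie above the line at negative sums. Gbp2, Irf1 and Psmb8 lie below it at positive sums, and Ifitm1 lies above it at a positive sum.

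The other genes of the pathway were taken from lists by role. Of 14 ligand and receptor genes on the arrays, 4 were detected: Ifnar2, Ifngr1, Ifngr2 and Ifnlr1. Probes of Ifna1, Ifna2, Ifna4, Ifna5, Ifnb1, Ifng, Ifnk and Ifne were not well above background on any array. Ifngr2, a chain of the interferon gamma receptor, was at least 1.33-fold higher under PD, 1.81-fold under CH and 1.51-fold under PCL than in untreated cells, where it was not well above background. A second probe gave at least 1.05-fold, 1.11-fold and 1.29-fold, and its remaining probe was detected on no array. All 4 detected genes lay between -0.51 and 0.87 on the treated arrays, with 0 past 2-fold.

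Of 24 transducers and regulators 12 were detected, and 0 passed 2-fold under PD, CH, LIF or PCL. Their median under PD was 0.29, with 9 above and 3 below 0, where 50.2% of all genes lay above. Under LIF it was 0.26, with 10 above and 2 below, where 55.2% of all genes lay above. It was 0.12 under CH and 0.06 under PCL. Tyk2, a receptor-bound JAK kinase, had the largest value under PD at 0.88 ± 0.10, and was at least 1.43-fold and 1.11-fold higher by its other 2 probes, which untreated cells did not show above background. Mavs, the mitochondrial adaptor of RNA sensing, stood at 0.78 ± 0.19 under LIF and 0.63 ± 0.19 under PCL. Stat2 was at least 1.27-fold higher under PD and 1.36-fold under LIF than in untreated cells, where it was not well above background. Its measured differences were 0.42 ± 0.21 and 0.52 ± 0.21. Detection fixed their direction, and Stat2 is counted among the genes above 0 under PD and LIF. Jak2 stood at 0.68 ± 0.17 under PCL.

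Among 56 other interferon-stimulated genes, 22 were detected on some array. Their medians were -0.07 under PD, -0.18 under CH, -0.08 under LIF and -0.09 under PCL, beside 0.00, -0.01, 0.05 and 0.00 over all genes. With arrays scaled to a common median they were 0.04 under PD and 0.11 under LIF, so the sign of the list's middle is not settled on those arrays. The genes detected on 1 array of a pair entered through that array. In measured values 1 was at least 2-fold lower under PD, where 0.451% of all genes were, 1 under CH (0.39%), 2 under LIF (2.81%) and 0 under PCL (0.68%). The count at least 2-fold higher was 0 on these arrays. Of the lower ones, only Irgm1 was detected on both arrays of its pair. Isg15, a ubiquitin-like protein, was detected in untreated cells and was at least 1.77-fold lower under PD, 1.70-fold under CH and 1.82-fold under LIF. Ifi27l2a was at least 1.51-fold lower under CH and 1.61-fold lower under LIF. Tor3a stood at -0.75 ± 0.20 under PD and -0.89 ± 0.16 under PCL, beside Bst2 at -1.38 and -0.79, and at -0.55 and -0.48 by another probe detected on these arrays. Irgm1, an immunity-related GTPase, stood at -1.96 ± 0.07 under LIF by its brightest probe and at 0.26 ± 0.18 by another detected probe, so its probes disagree.

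Of 23 genes of antigen presentation 15 were detected, and 0 passed 2-fold under PD, CH, LIF or PCL. Under PD, where 50.2% of all genes lay above 0, 11 of 14 compared lay below 0, with a median of -0.35. The members' own median of -0.33 is the value of Tap1, whose direction was fixed by detection, so the 2 medians are not compared. Tap2, the partner of Tap1, stood at -0.99 ± 0.19 under PD, the class I gene H2-T23 at -0.84 ± 0.15 and the proteasome subunit Psmb10 at -0.74 ± 0.08, with its other probe at -0.73. Under LIF, where 55.2% of all genes lay above 0, 4 lay above and 9 below 0. Their median was -0.24, or -0.05 with arrays scaled to a common median. The median was 0.05 under CH and -0.10 under PCL. Under LIF Psmb10 was at -0.54 ± 0.08 and -0.09 by its other probe. Tapbp, which joins the transporter to class I molecules, stood at -0.95 ± 0.19 under CH and -0.24 by its other probe.

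Genes whose pattern over the arrays was most like that of Bst2 and of Gbp2 were sought among 8137 genes by the Euclidean distance between the 4 differences from untreated. For Bst2 they were Krt42 (distance 0.445, Pearson's r 0.98 over the 5 arrays), Dnmt3l (0.541, r 0.90) and Marco (0.594, r 0.94), of which only Dnmt3l was detected on all 5 arrays, while Krt42 and Marco were not well above background under PD and PCL. Dnmt3l, a cofactor of DNA methylation, stood at -1.17 ± 0.11 under PD and -1.12 ± 0.11 under PCL, and at -1.12 and -1.13 by its second probe. For Gbp2 they were Gbp2b (0.512, r 0.97), Mcl1 (0.621, r 0.96) and Oasl2 (0.665, r 0.98), all detected on 5 arrays. Gbp2b, the neighbour of Gbp2 on chromosome 3, stood at -0.36 ± 0.13 under PD, -0.30 ± 0.15 under CH, 0.82 ± 0.12 under LIF and -0.44 ± 0.15 under PCL. Mcl1, which counters apoptosis, stood at 0.73 ± 0.07 under LIF and -0.48 ± 0.07 under PCL, and Oasl2, an interferon-stimulated gene, at 0.57 ± 0.16 and -0.32 ± 0.19. The r values describe 5 points that share arrays and normalization.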

How the data were processed

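The 5 cultures of mouse epiblast stem cells gave 1 bead array each. Per the file headers, the authors deposited for each array a mean bead intensity on a linear scale with no background subtracted, the bead standard error of that intensity, and a detection p-value. Per the submitters' processing notes the software was BeadStudio, of unstated version. A second deposited table gives processed intensity as whole numbers. Its scaling is not stated in the sources used, and it served as an alternative only.

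Intensities were background-corrected, offset by 16, quantile-normalized and log2-transformed with neqc of limma 3.58.1 (R 4.3.3). This offset brings the differences of dim probes closer to 0. Probes were named through the platform annotation, and 0 symbols changed against RefSeq. The brightest probe represented a gene, and a gene was compared where detected at a detection p under 0.01 on at least 1 of the 2 arrays. Where 1 array did not detect it, "at least N-fold" sets the brighter level against the lowest detected level of the dimmer array, or the probe's own level there if higher. These figures leave out the bead standard error, so small ones may lie within it. Levels of different probes were not compared. Further steps used numpy 2.4.6 and pandas 2.3.3 under Python 3.11.15, with matplotlib 3.10.9 for figures, and the calculation was tested on simulated data.

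With 1 array per condition no test was made, and the number of arrays limits the precision. The members, the lists and the rule for named genes were chosen with earlier results of these data known. The rule took all members, up to 3 genes with the largest difference per pathway list and comparison, the 3 genes nearest in pattern to Bst2 and to Gbp2, and check genes of each agent, of which those that bear on a result are printed. The alternatives covered background, offset, normalization, source table, detection, probe choice and the array used for comparison.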

Additional observations from a re-analysis of the deposited data

How the results depend on the processing

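No paired analysis was possible because each condition has 1 array. Of 31 member differences from untreated, 24 kept their sign under every alternative that gave a value (10, or 9 where the gene was not detected on both arrays) and 7 turned: Irf1 under PD to 0.00, B2m under PD to 0.28, Ifitm2 and B2m under CH to 0.03 and 0.08, Tap1 under LIF to 0.17, and Ifitm2 and B2m under PCL to 0.24 and 0.22. The alternatives of detection changed only which genes were compared, so they could not turn a sign. Averaging probes left members with 1 detected probe as they were. The signs of Bst2 under PD and Gbp2 under LIF follow from their choice. For members detected on 1 array of a pair, the sign was fixed by detection. Bst2 under PD lay between -1.45 and -1.16, and Gbp2 under LIF between 1.07 and 1.47, the value of 1.47 being against the mean of the arrays without LIF. With that kind of baseline Bst2 moved to 0.69 under CH and Ifitm2 to -0.0043 under PD. For PCL the baseline was the mean of all other arrays, and Bst2 moved to -0.31. The members' median was -0.18 under PD without background correction and -0.38 under LIF among genes detected on both arrays. Against the mean of the arrays without the agent it was 0.13 under CH and 0.029 under LIF. Against the mean of all other arrays it was 0.23 under PCL. With an offset of 1, 2 members were at least 2-fold higher under LIF and 1 under PCL. Counts over all genes are given as higher and lower. Without background correction they were 8 and 7 under PD, 13 and 2 under CH, 5 and 134 under LIF, and 18 and 10 under PCL. With an offset of 1 they were 210 and 195, 180 and 202, 173 and 398, and 183 and 230 for PD, CH, LIF and PCL. With an offset of 50 they were 15 and 10 under PD, 17 and 5 under CH and 28 and 17 under PCL, and 6 were higher under LIF. With median scaling they were 60 and 19 under PD, against 38 and 35 with quantiles, 63 and 20 under CH, against 44 and 30, and 48 and 170 under LIF, against 12 and 219. Among genes detected on both arrays, 23 were lower under PD, 26 higher and 14 lower under CH, and 28 lower under PCL, and fewer genes were compared there. Against the mean of the arrays without the agent, 22 were lower under PD. Against the mean of all other arrays, 27 were higher and 15 lower under PCL. The causes of the other shifts were not tested. Signal over background limits Ifitm1, Psmb8 and Tap1, whose raw signals were at most 114.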

Other observations

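The arrays hold other GTPases of the kind Gbp2 belongs to, guanylate-binding proteins and immunity-related GTPases, which restrict intracellular pathogens and are induced by interferon gamma. They were looked up after the value of Gbp2 had been seen, so their values are a description. Of 17 such genes on the arrays, 6 were detected: Gbp2, Gbp2b, Gbp3, Igtp, Irgm1 and Irgm2. Under LIF 5 of these lay above 0 and 1 below, while under PCL 2 lay above and 4 below, under CH 2 and 4, and under PD 3 and 3. Gbp2, among those above under LIF, was chosen for that value. Of all genes compared, 55.2% lay above 0 under LIF, 49.3% under PCL, 48.5% under CH and 50.2% under PD. Beside Gbp2 at 1.20 ± 0.09 and Gbp2b at 0.82 ± 0.12 under LIF, Gbp3 stood at 0.61 ± 0.19, Igtp at 0.59 ± 0.19 and Irgm2 at 0.55 ± 0.16. The same genes stood at -0.52 ± 0.09 (Gbp2), -0.44 ± 0.15 (Gbp2b), 0.39 ± 0.19 (Igtp) and 0.12 ± 0.15 (Irgm2) under PCL. Gbp3, not well above background under PCL, stood at a measured -0.16 ± 0.24 there, smaller than its bead standard error. Irgm1 was the exception under LIF, at -1.96 ± 0.07 by its brightest probe and 0.26 ± 0.18 by another detected probe. Gbp2 and Gbp2b are near copies whose probes may share sequence, which was not tested.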
